A study of Homo sapiens with 32 samples.

Results

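The 10 genes described here are targets, regulators and partners of the transcriptional coactivators YAP and TAZ: CCN1, CCN2, ANKRD1, AMOTL1, AMOTL2, LATS2, TEAD1, YAP1, WWTR1 and AJUBA. They were taken by gene symbol from the 18980 coding genes that each RNA-seq file lists, and all 10 were found and passed the filter on low counts. The cells were RH4, an established line of human alveolar rhabdomyosarcoma, a tumour of the skeletal muscle lineage. They received A485, dCBP, IHK-44 or JQAD, compounds that inhibit or degrade the acetyltransferases CBP, p300 or both, at 1 uM or 100 nM for 2 h or 6 h. The controls were 1 library of DMSO, the solvent, and 1 library with the label NT, an abbreviation left unexplained there, at each time. There was 1 library for each of the 20 conditions, without a replicate, and the RNA of the whole culture was measured.

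YAP and TAZ are coactivators without a DNA-binding domain of their own, and reach DNA mainly through the TEAD family of transcription factors. The Hippo kinases hold them back: LATS1 and LATS2 phosphorylate YAP and TAZ, which keeps them in the cytoplasm and marks them for turnover. YAP1 encodes YAP, WWTR1 encodes TAZ, and TEAD1 is one of the TEAD factors. CCN1 and CCN2 encode secreted matricellular proteins and, with ANKRD1, a muscle ankyrin repeat protein, are the target genes most often read as a measure of YAP activity. AMOTL1 and AMOTL2, members of the angiomotin family that can bind YAP, the kinase gene LATS2 and AJUBA, a LIM-domain protein that binds and restrains LATS kinases, regulate the pathway, and AMOTL2 and LATS2 are themselves induced by YAP as negative feedback. CBP and p300 are coactivators that acetylate histones at enhancers and promoters and take part in transcription driven by YAP and TEAD.

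The DNA before a gene's start is where TEAD factors can bind, so the promoters that hold the TEAD core sequence are shown for 3 members. The reference table of promoters, from RefSeq on GRCh38.p14, matched 8 of the 10 members: CCN2, ANKRD1, AMOTL1, AMOTL2, LATS2, YAP1, WWTR1 and AJUBA. In the 250 bases before the start that the table gives, searched on both strands, GGAATG was present in 3 of these 8 and in 10.0% of 15027 promoters of the same length. TGANTCA, a loose form of the site of AP-1 factors in which N is any base, was present in 1 of the 8 and in 5.04% of all promoters. The CArG box of serum response factor was present in none of the 8 and in 1.16% of all. CCN2 held 3 copies of GGAATG, beginning 169, 104 and 95 bases before the start, and ANKRD1 held 2, beginning 220 and 128 bases before it. ANKRD1 also held a match to this loose AP-1 form, TGATTCA, 195 bases before the start, and YAP1 held 1 TEAD match 162 bases before its start. For AMOTL1 and WWTR1 the table's start lies inside the gene's span, so that other starts of these genes were not searched. A match is a run of letters and not evidence of binding. In the sequences, written 5′ to 3′ on the gene's strand, capitals mark the TEAD and AP-1 matches. CCN2 lies on the minus strand, and its window is chr6:131951373-131951622. The ANKRD1 window, also on the minus strand, is chr10:90921088-90921337, and that of YAP1, on the plus strand, is chr11:102110197-102110446.
CCN2: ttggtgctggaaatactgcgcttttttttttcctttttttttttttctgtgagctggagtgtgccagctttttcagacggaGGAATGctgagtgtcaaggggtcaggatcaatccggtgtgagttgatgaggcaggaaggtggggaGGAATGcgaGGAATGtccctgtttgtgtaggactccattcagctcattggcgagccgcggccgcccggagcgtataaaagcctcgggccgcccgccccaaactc
ANKRD1: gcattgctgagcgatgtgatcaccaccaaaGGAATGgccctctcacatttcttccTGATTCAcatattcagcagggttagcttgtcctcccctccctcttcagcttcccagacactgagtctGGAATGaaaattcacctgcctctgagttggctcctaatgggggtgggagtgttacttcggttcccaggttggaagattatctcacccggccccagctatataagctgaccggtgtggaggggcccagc
YAP1: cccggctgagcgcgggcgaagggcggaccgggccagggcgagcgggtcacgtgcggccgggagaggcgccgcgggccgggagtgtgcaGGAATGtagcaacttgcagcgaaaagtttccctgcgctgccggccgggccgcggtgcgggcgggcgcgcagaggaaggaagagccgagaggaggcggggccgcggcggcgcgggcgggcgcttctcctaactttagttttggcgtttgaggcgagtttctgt

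The libraries held 13466631 to 16799327 counts over the coding genes, and no library was identical to another. Of 10 markers of alveolar rhabdomyosarcoma and myoblasts, all were expressed, with a summed level of 2784 to 2995 CPM (counts scaled to a common library size) in the controls. That sum was 1262 to 2311 CPM with dCBP and 1180 to 2329 CPM with IHK-44, 1547 to 2681 CPM with A485 and 2874 to 3274 CPM with JQAD. All 4 epithelial, 2 endothelial and 3 leukocyte markers were under 1 CPM in every library, and of 5 fibroblast markers 1 was. The fibroblast markers summed to 59.8 to 76.2 CPM in the controls, 30.7 to 71.4 CPM with dCBP, 32.0 to 65.5 CPM with IHK-44, 33.8 to 66.2 CPM with A485 and 54.0 to 72.1 CPM with JQAD. The share of quantified reads outside coding genes was estimated from the deposited counts, FPKM and effective lengths. It was 5.63% to 6.43% in the controls, 8.36% to 11.3% with dCBP and 8.20% to 9.58% with IHK-44. With A485 it was 4.64% to 6.37% and with JQAD 5.72% to 7.46%. In TPM, a scale over all genes quantified, the coding genes held 39.3% to 44.5% in the controls. That share was 27.9% to 35.4% with dCBP, 31.2% to 34.6% with IHK-44, 43.0% to 53.9% with A485 and 37.9% to 45.5% with JQAD. The part of these differences in the results was not tested.

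All 10 members were expressed in control cells. Per length, CCN1 had the highest level, 109.5 FPKM ± 15.2 (SD over the 4 control libraries of both times), and AJUBA followed at 62.0 FPKM ± 2.11. AMOTL2 was at 42.4 FPKM ± 10.6 and TEAD1 at 39.3 FPKM ± 1.46, and their ranges overlapped. Next came YAP1 at 32.2 FPKM ± 1.37, LATS2 at 31.7 FPKM ± 5.70 and AMOTL1 at 29.9 FPKM ± 0.432, where LATS2 overlapped with both of the others and AMOTL2 with YAP1 and LATS2. CCN2, at 13.9 FPKM ± 2.99, was above WWTR1 at 10.4 FPKM ± 0.349, and ANKRD1 had the lowest level at 7.24 FPKM ± 0.974. These last 3 did not overlap with each other. Some members differed between the control times. AMOTL2 at 6 h was at 64.6% of its 2 h level in both the DMSO and the NT libraries, CCN2 at 70.1% and 68.1%, and LATS2 at 76.6% and 71.2%. ANKRD1 was at 74.5% and 87.1% and CCN1 at 114% and 136%, and the members YAP1, WWTR1, TEAD1, AMOTL1 and AJUBA lay between 93.7% and 109%. Each treated library is therefore set against the controls of its own time.

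At 6 h of dCBP 9 of the 10 members fell, LATS2 being the exception, while 22.4% of the 13260 genes tested were called lower and 23.2% higher. With IHK-44 at 6 h 6 members fell: CCN2, AMOTL1, TEAD1, YAP1, WWTR1 and AJUBA, where 21.4% of all genes were called lower and 20.7% higher. With A485 at 6 h CCN2 and AMOTL1 fell, where 8.70% of genes were called lower and 7.87% higher. No member passed with JQAD at 2 h or 6 h, where 0.0% of genes were called in either direction. At 2 h, AMOTL2, CCN2 and LATS2 fell with dCBP (2.67% of genes lower, 2.96% higher) and AMOTL2 and LATS2 with IHK-44 (2.45% lower, 2.43% higher). None passed with A485 at 2 h, where 0.0452% of genes were called lower and 0.0% higher. A call is a p-value under 0.05 in the quasi-likelihood test of edgeR, after Benjamini-Hochberg adjustment over all genes. The test treats the 1 uM and 100 nM libraries of a compound at a time as its 2 replicates, and the DMSO and NT libraries of that time as the controls. Its p-values rest on a spread per gene that all compounds and times share, so libraries outside a comparison also enter it. That spread holds dose differences and may otherwise be technical. In RNA from a whole culture, fewer cells of a type and less RNA per cell cannot be told apart.

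The median log2 change of the 10 members was -1.17 with dCBP at 6 h, against 0.06 for all genes tested, and -0.76 against 0.06 with IHK-44. It was -0.62 with dCBP and -0.66 with IHK-44 at 2 h, -0.25 with A485 at 2 h and -0.47 with A485 at 6 h. With JQAD it was 0.00 at 2 h and -0.03 at 6 h. The comparisons at a time share their control libraries, so their values are set side by side.

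**Figure D1:**
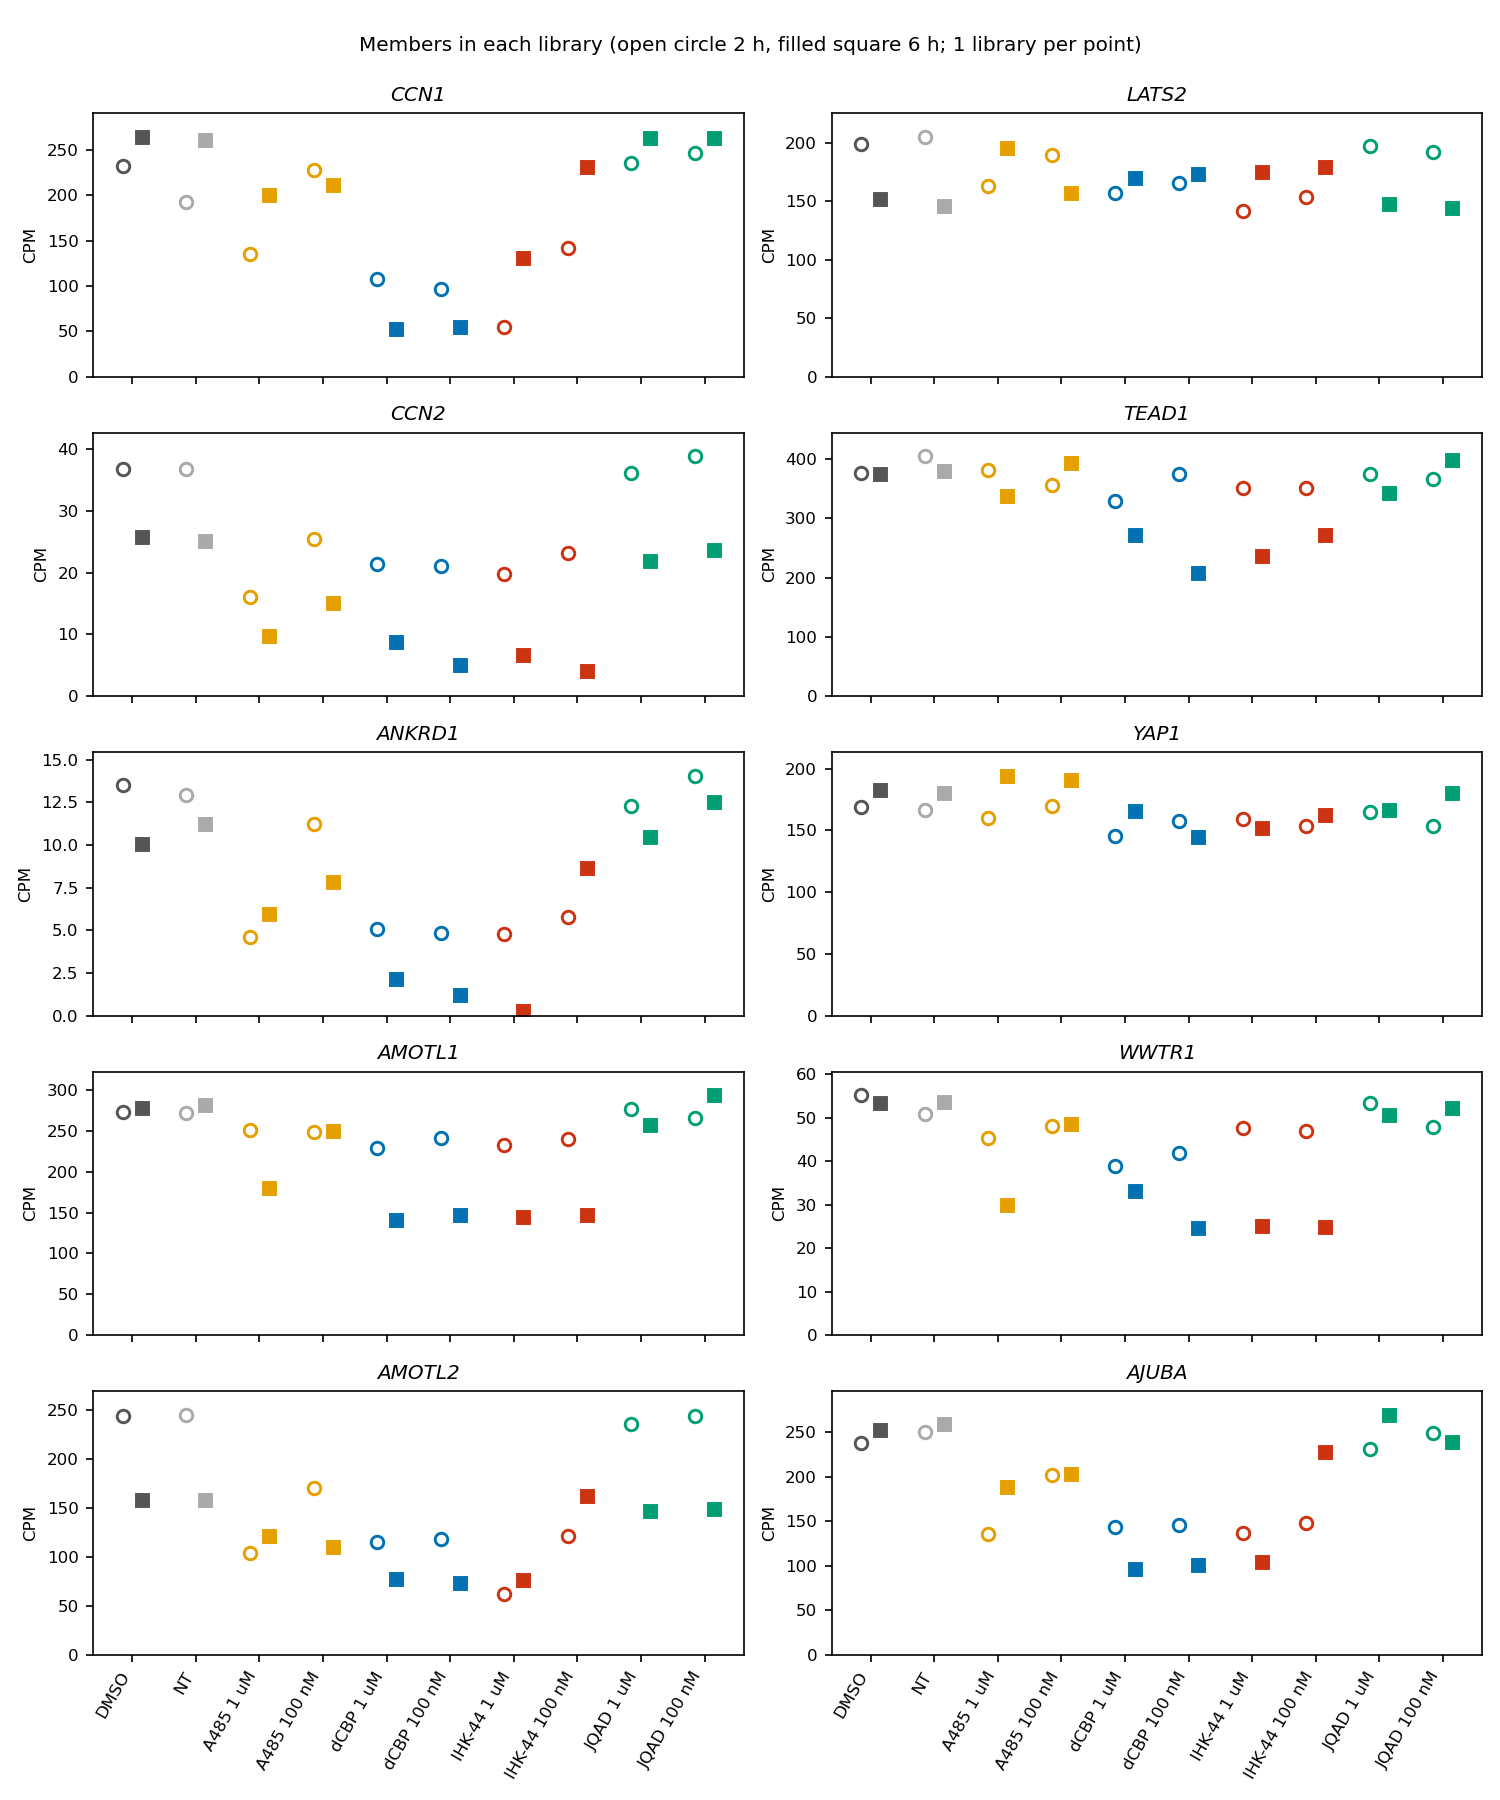
Level in CPM (linear axis from 0) of each member in each of the 20 libraries, open circles for 2 h and filled squares for 6 h, 1 library per point. The dCBP libraries of 6 h lie below both controls for 9 members, and 100 nM IHK-44 at 6 h lies near the controls for AMOTL2 but far below them for CCN2.

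CCN1, at chr1:85580761-85583950 on GRCh38.p14, was at 265 CPM in DMSO and 261 CPM in NT at 6 h. The 1 uM and 100 nM dCBP libraries of 6 h were at 52.4 and 54.9 CPM, and those of IHK-44 at 131 and 232 CPM. Both dCBP libraries were thus at about the same low level, whereas the IHK-44 libraries lay far apart, with 100 nM at 88.2% of the control mean. On the log2 scale that 100 nM library was at -0.18 in CPM, -0.36 relative to the median gene and -0.63 in TPM. The A485 libraries were at 200.3 and 211 CPM and the JQAD libraries at 264 and 263 CPM. The fitted log2 change at 6 h was -2.45 (SE 0.35, adjusted p = 4.74e-05) with dCBP and -0.70 (SE 0.33, adjusted p = 0.0954) with IHK-44, where it passed without the filter on low counts (adjusted p = 0.0268). At 2 h CCN1 was at 233 CPM in DMSO and 192 CPM in NT, the widest gap between the controls among the members. The CCN1 level was 108 and 96.5 CPM with 1 uM and 100 nM dCBP, 54.7 and 142 CPM with IHK-44, and 135 and 228 CPM with A485. All 4 dCBP and IHK-44 libraries of 2 h lay below both controls, but neither compound passed (adjusted p = 0.0611 for dCBP and 0.0581 for IHK-44).

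CCN2, whose gene body ends at the base before the promoter window shown above, was at 25.8 CPM in DMSO and 25.0 CPM in NT at 6 h. The level was 8.70 and 4.96 CPM with 1 uM and 100 nM dCBP, 6.62 and 4.11 CPM with IHK-44, and 9.71 and 15.0 CPM with A485. Every one of these 6 libraries was below both controls, and for dCBP and IHK-44 the lower dose had the lower level. With JQAD CCN2 was at 21.8 and 23.6 CPM. Its log2 change at 6 h was -2.06 (SE 0.27, adjusted p = 2.35e-05) with dCBP, -2.42 (SE 0.27, adjusted p = 7.10e-06) with IHK-44 and -1.13 (SE 0.25, adjusted p = 0.00915) with A485. The A485 call was lost without the 1 uM A485 library of 6 h (log2 change -0.80, adjusted p = 0.160), without the DMSO library of 6 h (adjusted p = 0.0606) and without the NT library of 6 h (adjusted p = 0.0683). CCN2 was already lower at 2 h, at 36.8 CPM in both controls, 21.4 and 21.1 CPM with dCBP, 19.8 and 23.2 CPM with IHK-44 and 15.97 and 25.4 CPM with A485. Of these 2 h differences the one with dCBP passed (-0.84, SE 0.24, adjusted p = 0.0487). CCN2 passed in 4 of the 8 comparisons with the controls, more than any other member.

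ANKRD1, the member with the fewest reads, was at 10.1 CPM in DMSO and 11.3 CPM in NT at 6 h, and at 2.14 and 1.20 CPM with 1 uM and 100 nM dCBP. With 1 uM IHK-44 at 6 h it was at 0.241 CPM, or 4 counts, which is 2.26% of the control mean (95% interval 0.611% to 5.83%, exact and for counting error only). With 100 nM IHK-44 at 6 h it was at 8.63 CPM, or 81.0% of the control mean. Between the IHK-44 doses the ANKRD1 level at 6 h thus ran from the lowest of the 20 libraries to one closer to the controls. The log2 ratio of the 100 nM library was -0.28 in CPM, -0.46 relative to the median gene and -0.63 in TPM. At 2 h the 1 uM libraries of A485, dCBP and IHK-44 were at 4.59, 5.10 and 4.75 CPM, against 13.5 CPM in DMSO and 12.9 CPM in NT. The 100 nM libraries were at 11.2 CPM with A485, 4.86 CPM with dCBP and 5.80 CPM with IHK-44. The fitted change at 6 h was -2.83 (SE 0.75, adjusted p = 0.00589) with dCBP and -1.42 (SE 0.64, adjusted p = 0.0841) with IHK-44, which passed without the filter (adjusted p = 0.0199) and with limma (adjusted p = 0.0186). The dCBP call did not pass without the 100 nM dCBP library of 6 h (-2.49, adjusted p = 0.0567).

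The angiomotin genes differed from each other. AMOTL1, at chr11:94706460-94876748, was at 278 and 282 CPM in DMSO and NT at 6 h, at 141 and 147 CPM with dCBP and at 145 and 147 CPM with IHK-44. All 4 of these libraries were between 50.5% and 52.6% of the control mean, at either dose. The log2 change was -1.11 with both compounds (SE 0.13, adjusted p = 9.70e-06 with dCBP and 8.68e-06 with IHK-44). In TPM, coding genes held 47.5% of the 100 nM A485 library of 6 h, against 39.3% and 39.9% in DMSO and NT. With A485 at 6 h AMOTL1 was at 180 CPM at 1 uM and 249.8 CPM at 100 nM, the latter above the controls by 0.18 on the log2 scale in TPM. Its change of -0.46 (SE 0.13, adjusted p = 0.0222) was lost without the 1 uM library (-0.20, adjusted p = 0.323), without DMSO of 6 h (adjusted p = 0.0987) and without NT of 6 h (adjusted p = 0.129). At 2 h the dCBP and IHK-44 libraries were at 229 to 242 CPM, against 273 and 272 CPM in the controls.

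AMOTL2, at chr3:134355345-134375417, was at 243 and 244 CPM in DMSO and NT at 2 h. AMOTL2 was already at 115 and 118 CPM with 1 uM and 100 nM dCBP at 2 h and at 61.8 and 121 CPM with IHK-44. No treated library of these overlapped with the controls, and the 1 uM IHK-44 library was at 25.3% of their mean. The changes at 2 h were -1.12 (SE 0.30, adjusted p = 0.0394) with dCBP and -1.46 (SE 0.30, adjusted p = 0.0103) with IHK-44. At 6 h AMOTL2 was at 157 and 158 CPM in the controls, 76.9 and 73.4 CPM with dCBP, 76.4 CPM with 1 uM IHK-44 and 162 CPM with 100 nM IHK-44. The last library lay above both controls in CPM, at 103% of their mean, but below the median gene's ratio (log2 -0.14) and below the controls in TPM (log2 -0.41). Coding genes held 31.7% of the TPM in that library, against 39.3% and 39.9% in DMSO and NT. The change of AMOTL2 at 6 h was -1.23 (SE 0.30, adjusted p = 0.00369) with dCBP and -0.56 (SE 0.30, adjusted p = 0.136) with IHK-44.

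AJUBA, at chr14:22971177-22982551, showed the same split between the IHK-44 doses. The 6 h level was 252 and 259 CPM in DMSO and NT, 96.4 and 101 CPM with dCBP, and 104 and 227 CPM with 1 uM and 100 nM IHK-44. The dCBP libraries and the 1 uM IHK-44 library were near 40% of the controls, at 37.7% to 40.8%, and the 100 nM IHK-44 library was at 88.8%. The log2 ratio of that last library was -0.17 in CPM, -0.35 relative to the median gene and -0.58 in TPM. The changes were -1.53 (SE 0.25, adjusted p = 0.000156) with dCBP and -0.79 (SE 0.24, adjusted p = 0.0163) with IHK-44. The IHK-44 call was lost without the 1 uM IHK-44 library of 6 h (-0.32, adjusted p = 0.196), without DMSO of 6 h (adjusted p = 0.0554) and without NT of 6 h (adjusted p = 0.0726). At 2 h the dCBP and IHK-44 libraries were at 136 to 147 CPM, against 237 and 251 CPM, and neither passed (adjusted p = 0.0647 and 0.0653).

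LATS2, at chr13:20973036-21061586, was the 1 member that did not pass with dCBP at 6 h. The LATS2 level of 2 h was 199 and 205 CPM in the controls, 157 and 166 CPM with dCBP, and 141 and 154 CPM with IHK-44. These 4 libraries lay below both controls, and the changes passed with dCBP (-0.37, SE 0.10, adjusted p = 0.0357) and IHK-44 (-0.50, SE 0.10, adjusted p = 0.00757). The 6 h level was 152 and 146 CPM in the controls, 170.2 and 174 CPM with dCBP and 175 and 179 CPM with IHK-44. In CPM these libraries lay above both controls, yet the fitted changes were 0.05 (SE 0.10, adjusted p = 0.699) and 0.08 (SE 0.10, adjusted p = 0.528). The direction depended on the scaling: in the same 4 libraries the median gene had a log2 ratio of 0.16 to 0.22 in CPM. Relative to it LATS2 lay between -0.02 and 0.08. In TPM the coding genes held 27.9% to 35.4% of these libraries, against 39.3% and 39.9% in the controls. On that scale the log2 ratio of LATS2 was -0.45 to -0.05. With limma on log2(CPM + 1) the change with IHK-44 passed upwards (0.25, adjusted p = 0.0399).

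Among the factors themselves, YAP1 moved least. At 6 h YAP1, at chr11:102110447-102233424, was at 183 and 181 CPM in the controls, 166 and 144 CPM with 1 uM and 100 nM dCBP, and 152 and 163 CPM with IHK-44. Its changes were -0.39 (SE 0.08, adjusted p = 0.0016) with dCBP and -0.38 (SE 0.08, adjusted p = 0.00217) with IHK-44, the smallest of the members that passed at 6 h. The 4 libraries lay below both controls, at 79.4% to 91.3% of their mean. The size depended on the scaling: their log2 ratios were -0.33 to -0.13 in CPM, where the median gene was at 0.16 to 0.22. Relative to that gene they were -0.49 to -0.34, and in TPM -0.98 to -0.39. With A485 at 6 h YAP1 was at 194 and 191 CPM, and its fitted change was 0.00 (SE 0.08). Over the 20 libraries its highest level was 1.35 times its lowest.

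WWTR1, at chr3:149517235-149724788, was at 53.5 and 53.7 CPM in DMSO and NT at 6 h, 33.0 and 24.6 CPM with 1 uM and 100 nM dCBP, and 25.1 and 24.8 CPM with IHK-44. All 4 libraries were far below the controls, and both IHK-44 doses were at about 47% of them (46.8% and 46.3%). The changes were -1.06 (SE 0.18, adjusted p = 0.000226) with dCBP and -1.27 (SE 0.18, adjusted p = 4.58e-05) with IHK-44. With A485 at 6 h WWTR1 was at 29.8 CPM at 1 uM and 48.6 CPM at 100 nM. Its change of -0.53 (SE 0.18, adjusted p = 0.0504) did not pass, though it did with DESeq2 (adjusted p = 0.0248). Without the 100 nM library, which leaves 1 A485 library of 6 h, the change was -0.97. TEAD1, at chr11:12674421-12944737, was at 375 and 379 CPM in the controls at 6 h, 272 and 208 CPM with dCBP and 236 and 271 CPM with IHK-44. These libraries did not overlap with the controls, and the changes were -0.81 (SE 0.12, adjusted p = 7.79e-05) with dCBP and -0.74 (SE 0.12, adjusted p = 0.000177) with IHK-44. At 2 h neither WWTR1 nor TEAD1 passed, and TEAD1 with 100 nM dCBP was at 375 CPM, against 376 and 405 CPM in the controls.

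**Figure D2:**
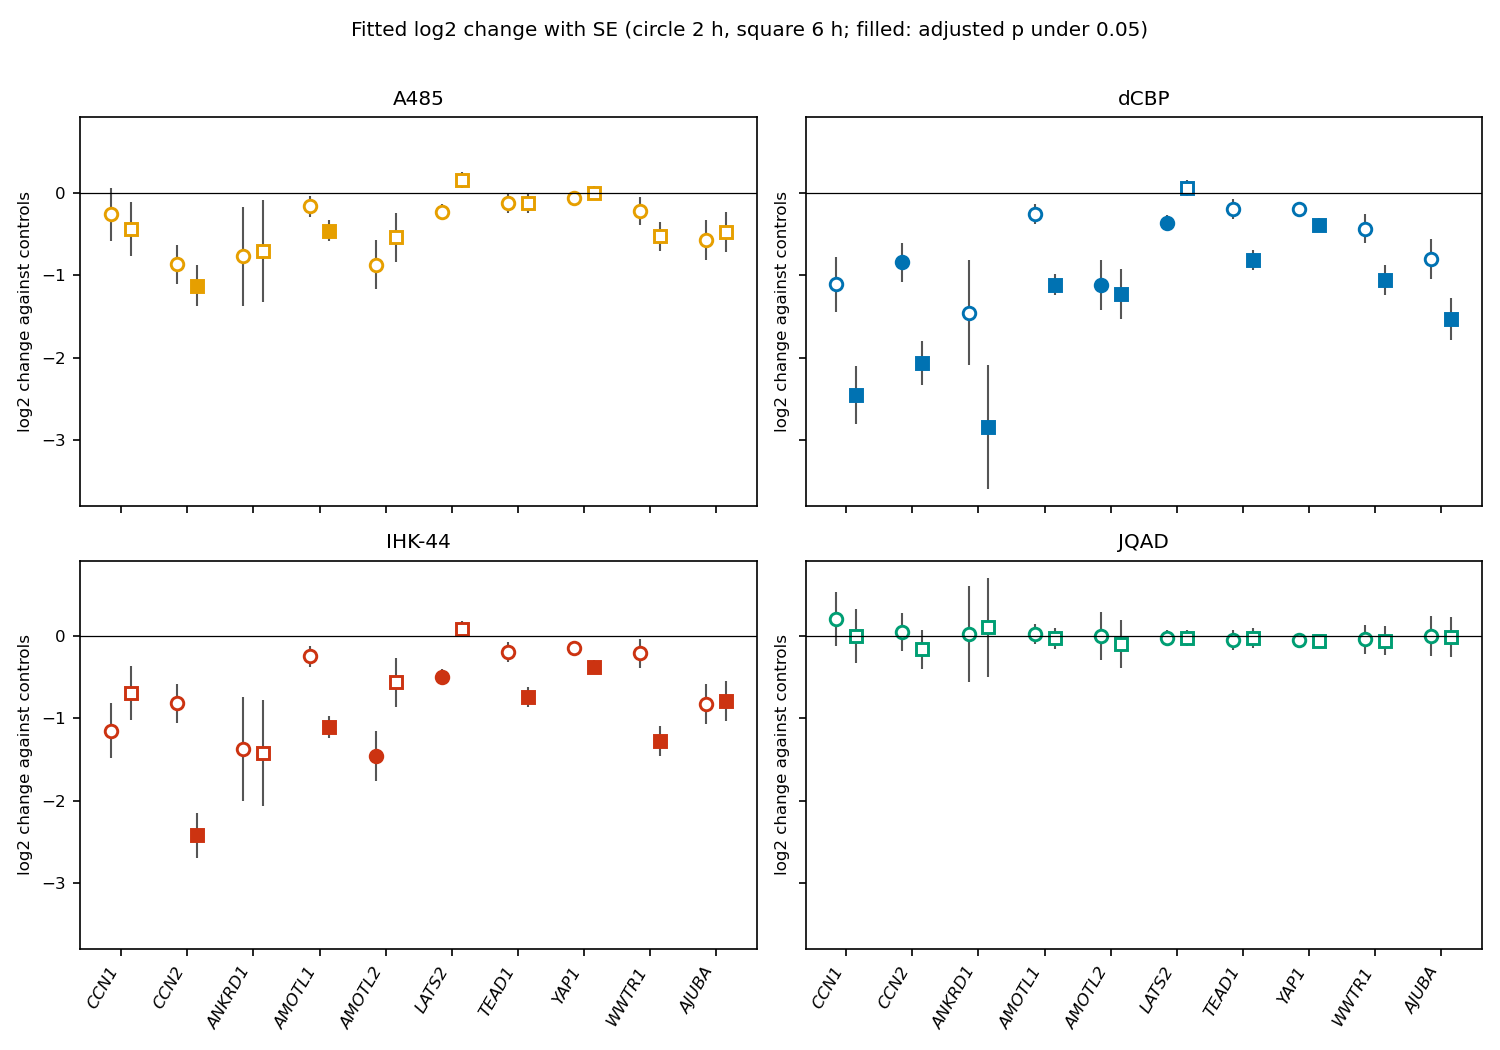
Fitted log2 change of each member against the DMSO and NT libraries of the same time, by compound, with the standard error as bars; circles are 2 h, squares 6 h, and filled symbols have an adjusted p under 0.05. With dCBP at 6 h 9 members are filled and below 0, with IHK-44 at 6 h 6, with A485 at 6 h 2, and with JQAD 0.

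The 2 h calls rested on few libraries. For dCBP at 2 h no member passed without either dCBP library of 2 h, without DMSO of 2 h or without NT of 2 h, 1 passed without any control library of 6 h or JQAD library of 2 h, and 5 to 7 passed without any A485 library or any IHK-44 library of 6 h. For IHK-44 at 2 h no member passed without 1 uM IHK-44 of 2 h or NT of 2 h, 1 passed without DMSO of 2 h, and 5 or 6 passed without any A485 library or an IHK-44 library of 6 h. At 6 h dCBP kept 8 or 9 calls without any single library. Without the 100 nM IHK-44 library of 6 h, the IHK-44 change at 6 h rested on 1 library. It was then -1.19 for CCN1, -1.23 for AMOTL2 and -5.61 for ANKRD1, the last on 4 counts. The spread between the IHK-44 doses at 6 h does not enter that fit, so no call is read from it.

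Whether the response changed between 2 h and 6 h was tested as the interaction of compound and time. With dCBP 3 members passed, where 9.06% of genes did: CCN2 (-1.22, SE 0.36, adjusted p = 0.0447), AMOTL1 (-0.85, SE 0.18, adjusted p = 0.00991) and TEAD1 (-0.62, SE 0.17, adjusted p = 0.0341) were further below the controls at 6 h than at 2 h. With IHK-44 4 passed, where 9.89% of genes did. CCN2 (-1.60, SE 0.36, adjusted p = 0.0107), AMOTL1 (-0.86, SE 0.18, adjusted p = 0.00695) and WWTR1 (-1.06, SE 0.25, adjusted p = 0.0144) were further below the controls at 6 h. LATS2 went the other way (0.58, SE 0.14, adjusted p = 0.0137). None passed with A485, where 0.00754% of genes did, or with JQAD, where 0.0% did. With DMSO alone or NT alone as the control, 0 members passed for either dCBP or IHK-44. Leaving out 1 library gave 0 to 5 members for dCBP, with 0 without 100 nM dCBP of 2 h and 1 without any one of the DMSO or NT libraries, 1 uM JQAD of 2 h, 100 nM JQAD of 2 h or 100 nM dCBP of 6 h. For IHK-44 it gave 2 to 5, with 2 without NT of 6 h or 100 nM IHK-44 of 2 h.

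**Figure D3:**
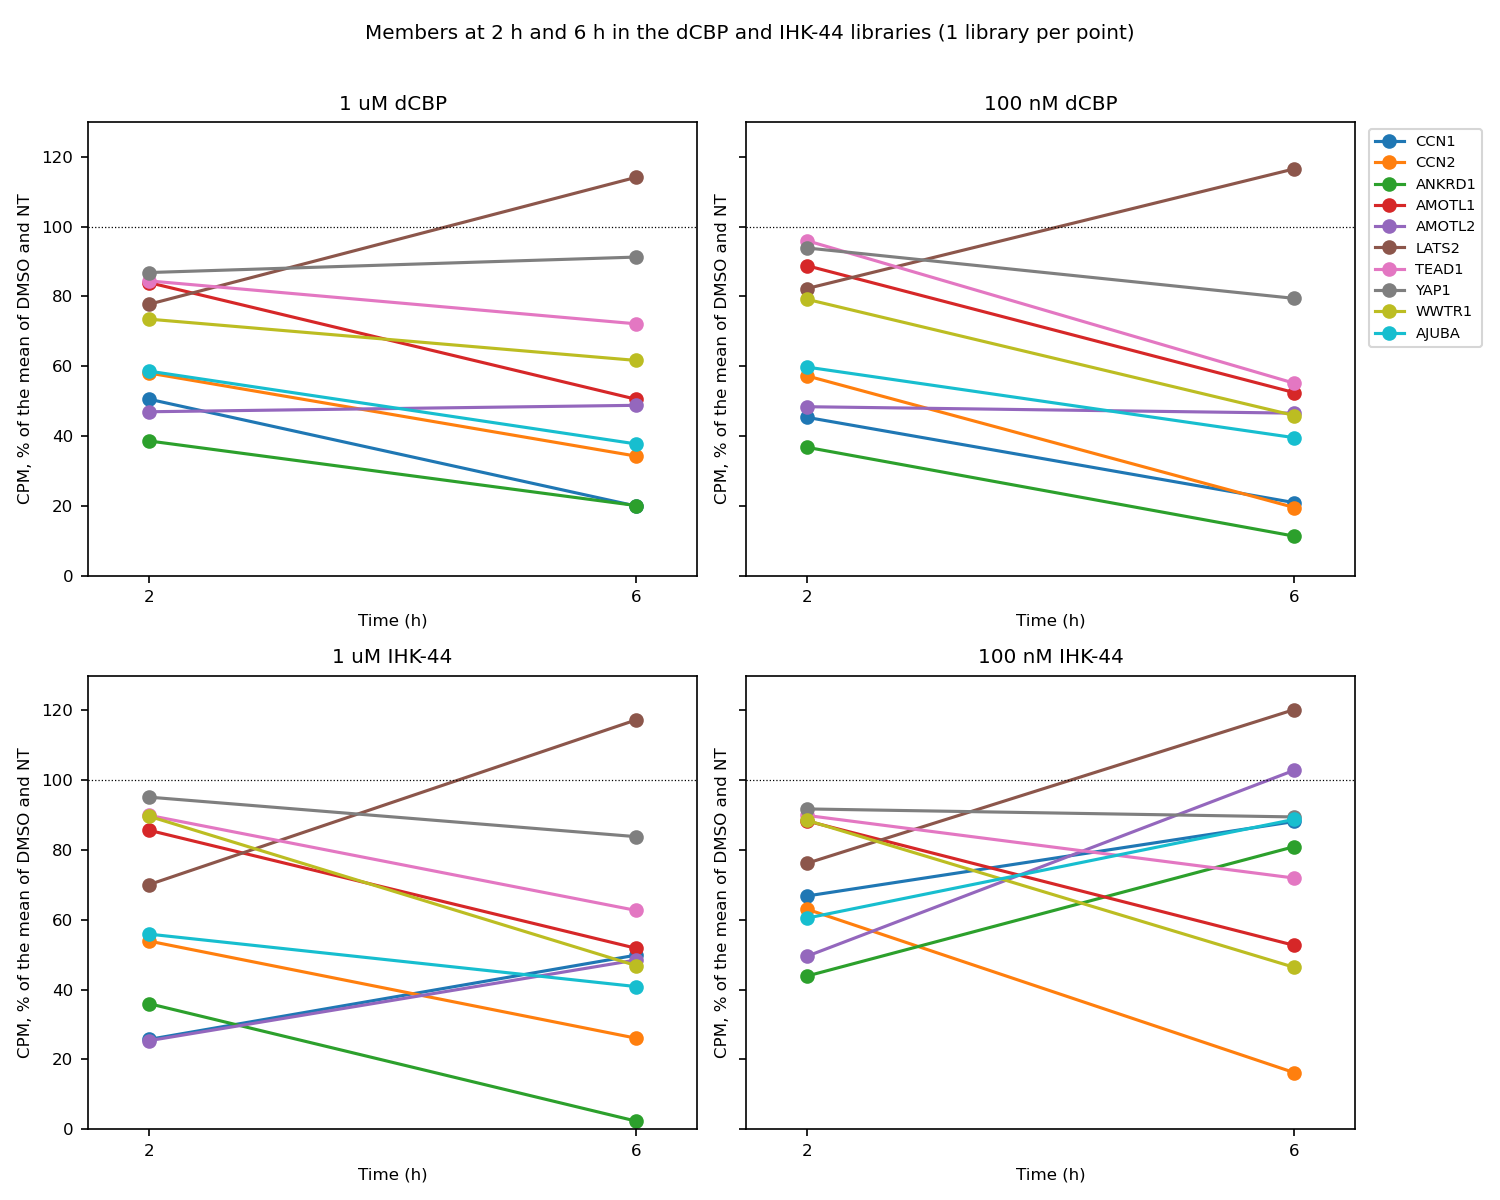
Level of each member as a percentage of the mean of the DMSO and NT libraries of the same time (linear axis from 0), at 2 h and 6 h, for each dose of dCBP and IHK-44, 1 library per point. With 100 nM IHK-44 AMOTL2 goes from 49.5% to 103% and CCN2 from 63.0% to 16.2%, while with dCBP CCN1, CCN2, ANKRD1, AMOTL1, TEAD1, WWTR1 and AJUBA are lower at 6 h than at 2 h at both doses.

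The members differed in how their levels with 100 nM IHK-44 stood at 2 h and 6 h, described here without a test. CCN1 was at 66.8% of the control mean at 2 h and 88.2% at 6 h, ANKRD1 at 43.9% and 81.0%, AMOTL2 at 49.5% and 103%, and AJUBA at 60.5% and 88.8%. These 4 were closer to the controls at the later time. CCN2 was at 63.0% and 16.2%, AMOTL1 at 88.3% and 52.6%, WWTR1 at 88.5% and 46.3%, and TEAD1 at 89.9% and 71.9%, so these 4 were further from the controls at the later time. YAP1 was at 91.8% and 89.5%, and LATS2 went from 76.2% to 120.3%. Relative to the median gene, LATS2 at 6 h was at 0.08 on the log2 scale. The control levels of AMOTL2, LATS2, CCN2 and ANKRD1 were themselves lower at 6 h than at 2 h. With 1 uM IHK-44 CCN1 was at 25.7% at 2 h and 49.9% at 6 h and AMOTL2 at 25.3% and 48.5%, so these were closer to the controls at 6 h at that dose too. ANKRD1 at 1 uM was at 36.0% and 2.26% and AJUBA at 55.9% and 40.8%, further from the controls at 6 h.

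The dose was tested within each compound over both times. With IHK-44, the level of CCN1 differed by -1.12 on the log2 scale, lower at 1 uM (SE 0.17, adjusted p = 0.0304) and that of AMOTL2 by -1.06 (SE 0.16, adjusted p = 0.0325), which makes 2 members where 0.107% of 13137 genes passed. For ANKRD1 the difference was -1.85 (SE 0.65) and for AJUBA -0.65 (SE 0.20), and neither passed over both times. CCN2 differed by 0.11 (SE 0.22, 95% interval -0.38 to 0.60), AMOTL1 by -0.07 (interval -0.36 to 0.22) and WWTR1 by -0.01 (interval -0.40 to 0.37). Both calls were lost without any one of the 4 dCBP libraries or without either IHK-44 library of 6 h. Without either IHK-44 library of 2 h, the dose contrast of IHK-44 rests on 1 library per dose at 6 h. Without the 1 uM library of 2 h it was -5.16 for ANKRD1, on 4 counts at 1 uM, and -1.17 for AJUBA. No member passed between doses with A485, where 0.929% of genes did. At an unadjusted p under 0.05 were 5 members and 1394 of the 13137 genes. With A485 CCN2 differed by -0.72 (SE 0.21, adjusted p = 0.176). None passed with dCBP or JQAD, where 0.0% of genes did. No member had an unadjusted p under 0.05 there, while 150 of all genes did with dCBP and 262 with JQAD.

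**Figure D4:**
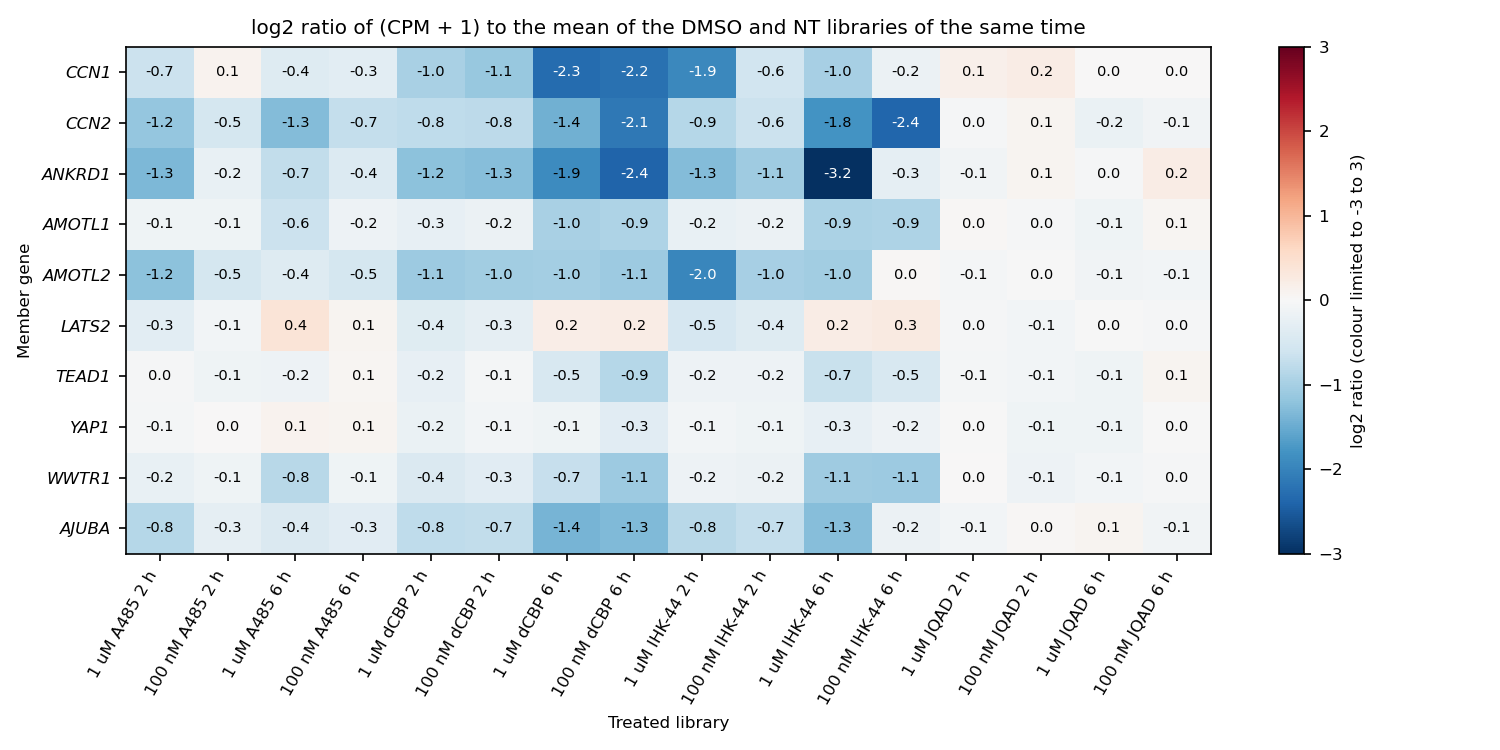
Log2 ratio of CPM + 1 in each of the 16 treated libraries to the mean of the DMSO and NT libraries of the same time, members in rows, with the value printed in each cell and the colour limited to -3 to 3. The lowest values are those of ANKRD1 with 1 uM IHK-44 (-3.23) and 100 nM dCBP (-2.40) at 6 h, followed by CCN2 with 100 nM IHK-44 at 6 h (-2.37), and the JQAD columns stay near 0.

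The compounds were compared in pairs at matched doses and times, 6 pairs in all, over both times together. Between dCBP and IHK-44 0.0% of genes passed and no member did. Of all genes 1335 had an unadjusted p under 0.05, and of the members CCN1 did. CCN1 differed by -0.85 (95% interval -1.36 to -0.35), lower with dCBP, with an adjusted p of 0.372 over all genes and 0.00344 over the 6 pairs. For AMOTL1 the interval of that difference was -0.20 to 0.18, for WWTR1 -0.28 to 0.27, for YAP1 -0.16 to 0.10 and for TEAD1 -0.22 to 0.15. For ANKRD1 it was wide, -1.88 to 0.37.

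A485 differed from dCBP in 5 members, where 11.5% of genes passed, with the level higher under A485 for all 5. CCN1 differed by 1.43 (SE 0.24, adjusted p = 0.00395), AJUBA by 0.64, TEAD1 by 0.38, AMOTL1 by 0.37 and YAP1 by 0.26. Against IHK-44 4 members were higher with A485, where 8.91% of genes passed: CCN2 (0.62, SE 0.19, adjusted p = 0.0475), AMOTL1 (0.36), TEAD1 (0.35) and YAP1 (0.23). JQAD differed from A485 in 4 members, where 18.1% of genes passed. CCN2 was lower with A485 than with JQAD by -0.94 (SE 0.17, adjusted p = 0.00387), AMOTL2 by -0.65, AJUBA by -0.52 and AMOTL1 by -0.31. With p-values adjusted over the 6 pairs, 8 members differed between A485 and dCBP, 6 between A485 and IHK-44 and 5 between A485 and JQAD. That adjustment is made within a gene, and the share of all genes passing it was not computed. At an unadjusted p under 0.05 were 9, 7 and 5 members, and 3935, 3526 and 4532 of all 13260 genes. The counts moved with single libraries: from 1 (without 100 nM A485 of 6 h or 1 uM dCBP of 2 h) or 2 (without 100 nM A485 of 2 h or 100 nM dCBP of 6 h) to 7 for A485 and dCBP. For A485 and IHK-44 they ran from 0 (without either 100 nM A485 library or either 1 uM IHK-44 library) or 1 (without 100 nM IHK-44 of 2 h) to 6, and for A485 and JQAD from 1 (without either 1 uM A485 library, either JQAD library of 2 h or 100 nM JQAD of 6 h) or 2 (without any control library, 100 nM dCBP of 2 h or 1 uM JQAD of 6 h) to 5.

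JQAD differed from dCBP in 9 members, where 43.2% of genes passed, and from IHK-44 in all 10, where 40.5% did. With p-values adjusted over the 6 pairs, 9 members differed in each, and the share of all genes was not computed. At an unadjusted p under 0.05 were 9 members and 6747 of all 13260 genes against dCBP, and 10 members and 6452 genes against IHK-44. CCN1 was lower with dCBP than with JQAD by -1.88 (SE 0.24, adjusted p = 2.70e-05) and with IHK-44 by -1.02 (SE 0.23, adjusted p = 0.00234). CCN2 was lower by -1.39 and -1.56, and ANKRD1 by -2.20 and -1.45. LATS2 differed from JQAD with IHK-44 (-0.18, SE 0.07, adjusted p = 0.048 over all genes and 0.0777 over the 6 pairs) and not with dCBP (interval -0.27 to 0.02). With JQAD itself the 10 fitted changes against the controls lay between -0.05 and 0.20 at 2 h and between -0.17 and 0.10 at 6 h. For ANKRD1 the 95% interval with JQAD at 6 h was -1.16 to 1.36, and for YAP1 it was -0.25 to 0.11. No member had an unadjusted p under 0.05 with JQAD, while 138 of all genes did at 2 h and 284 at 6 h.

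The rest of the Hippo pathway was described from a list of 26 genes, of which 25 were tested. At 6 h 12 fell and 5 rose with dCBP, 13 fell and 6 rose with IHK-44, 7 fell and 4 rose with A485, and none passed with JQAD. Of all genes 22.4% were lower and 23.2% higher with dCBP, 21.4% and 20.7% with IHK-44, and 8.70% and 7.87% with A485. The list's median change was -0.38 with dCBP and -0.30 with IHK-44, against 0.06 for all genes in each. By the mean change of both compounds, among genes called with both, the largest falls were those of VGLL2 and VGLL3, cofactors that bind TEAD factors in place of YAP, and of FRMD6. Under dCBP VGLL2 changed by -3.29 (SE 0.42) and VGLL3 by -2.50 (SE 0.30), and under IHK-44 by -3.07 (SE 0.40) and -1.51 (SE 0.29). FRMD6, a FERM-domain protein of the upstream pathway, changed by -1.96 and -1.85. The largest rises called with both compounds were TAOK3 (0.46 and 0.73), WTIP (0.71 and 0.47) and TAOK2 (0.68 and 0.46), of which the TAO kinases act upstream of the Hippo kinases and WTIP is a relative of AJUBA. TEAD2, TEAD3 and TEAD4 fell with both compounds as TEAD1 did, by -0.43, -0.78 and -0.87 with dCBP. With A485 at 6 h TEAD2 (-0.39), TEAD3 (-0.75) and TEAD4 (-0.52) were also called lower, and TEAD1 was not (-0.13).

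A second list held 17 other published targets of YAP and TAZ, of which 16 were tested and 1, PTPN14, is also in the first list. At 6 h 12 fell with dCBP and 14 with IHK-44, and none rose, against the same shares of all genes. With A485 4 fell and 1, NT5E, rose, a gene at 0 to 0.250 CPM in the controls. The median change was -0.60 with dCBP and -0.77 with IHK-44. FJX1, a secreted regulator named after Drosophila four-jointed, changed by -3.98 (SE 0.48, adjusted p = 1.36e-05) and -4.29 (SE 0.48, adjusted p = 7.32e-06). GADD45A, a stress-response gene, changed by -1.90 and -2.17, and RBMS3, an RNA-binding protein gene, by -1.39 and -0.90. At 2 h, 3 genes of the first list and 2 of the second fell with dCBP, and 2 of each with IHK-44, where 2.67% and 2.45% of all genes were called lower. Of 6 relatives of the CCN and ANKRD1 families, 2 were tested. CCN3 changed by -2.43 with dCBP at 6 h and ANKRD23 by 1.67, and CCN4, CCN5, CCN6 and ANKRD2 were under 0.2 CPM in the controls.

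The genes nearest in pattern to a member were found by the root mean square difference of log2 ratios over the 16 treated libraries, among 10544 genes with a mean of at least 5 CPM. This was done for the 6 members whose ratio reached 1 in size in some library. WWTR1 had the closest match, RELL1 with a difference of 0.0958 and CTBP2 with 0.105, and among the members AMOTL1 was nearest to it (0.135). The difference is not scaled to the size of the response. The root mean square of the ratios of WWTR1 was the smallest of the 6, at 0.565, against 1.17 for CCN2. CCN2 was nearest to KIT (0.219) and EN2 (0.228), and to no member closer than WWTR1 (0.641). CCN1 was nearest to PRDM12 (0.277) and ZBTB18 (0.369), ANKRD1 to PROX1 (0.379) and IRF2BPL (0.402), and AMOTL2 to SERTAD2 (0.264) and IRX1 (0.306). AJUBA was nearest to TRIM8 (0.212) and PAX3 (0.230), and it was the nearest member to CCN1, ANKRD1 and AMOTL2. The ratios of a time share their controls, and the difference is a description.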

How the data were processed

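The RNA-seq files of 20 libraries were used, and the ChIP-seq and ChRO-seq samples were not analysed here. The submitters' processing notes name STAR 2.5.3a, RSEM 1.3.3 and the builds hg38 and mm10, without their roles for each data type. The expected counts deposited by the authors are estimates of the reads of a gene. The deposited CPM values are those counts scaled to 1 common total over the coding rows, and the TPM and FPKM values deposited by the authors are scaled over all genes quantified, so they also move with rows that are not listed. Levels are given in CPM, levels between genes in FPKM, and ratios as log2(CPM + 1), which understates the change of low genes.

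Expected counts were rounded and fitted with edgeR 4.0.16 in R 4.3.3 (glmQLFit and glmQLFTest, TMM scaling, filterByExpr), with 1 level per compound and time and 1 control level per time (13260 genes, 10 residual degrees of freedom). Dose was fitted in the 16 treated libraries with compound and time as a block and a dose term for each compound (13137 genes, 4 residual degrees of freedom). P-values were adjusted by Benjamini-Hochberg over all genes, for pairs of compounds also over the 6 pairs. The fits were tested on simulated data. Outside the dose comparison, the doses of a compound did not differ there, so that test leaves out dose differences. Alternatives were median-ratio scaling, no filter, DESeq2 1.42.0, limma 3.58.1 on log2(CPM + 1), DMSO or NT alone as control, each library left out in turn and, for single ratios, a pseudocount of 0.1 CPM, rescaling to the median gene and TPM. Depth was 13466631 to 16799327 counts, and the intervals given for counts cover counting error only.

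All 10 members are named. Of each list, the 3 largest falls and 3 largest rises called with both dCBP and IHK-44 at 6 h are named, and other list genes were named after their values were seen. The members and the lists were chosen with earlier results of these data known.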

Additional observations from a re-analysis of the deposited data

Results flagged for a closer look

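Responses that differed between 2 h and 6 h by the interaction term were those of CCN2 (log2 -1.22 with dCBP, -1.60 with IHK-44), AMOTL1 (-0.85 and -0.86), TEAD1 with dCBP (-0.62), WWTR1 with IHK-44 (-1.06) and LATS2 with IHK-44 (0.58). Compounds differed in 5 members between A485 and dCBP, 4 between A485 and IHK-44, 4 between A485 and JQAD, 9 between dCBP and JQAD and 10 between IHK-44 and JQAD. In reads that the comparisons do not use, the estimated share outside the coding genes was 9.44% with dCBP and 8.89% with IHK-44 (means of 4 libraries). These were above the 6.10% of the 4 control libraries, while A485 was at 5.56% and JQAD at 6.42%. No group of libraries had the 4 to 10 samples needed to look for a single library far from its group.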

How the results depend on the processing

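With dCBP at 6 h 9 members passed under each of the 6 settings that keep all treated libraries, and 8 to 9 with a library left out. With IHK-44 at 6 h the ranges were 5 to 8 and 5 to 9. Without the filter on low counts, 2 members passed with A485 at 2 h, 5 with dCBP at 2 h, 5 with IHK-44 at 2 h and 8 between A485 and dCBP. DESeq2 gave 1 with A485 at 2 h and 4 with IHK-44 at 2 h, and limma gave 1 with dCBP at 2 h and 2 between A485 and IHK-44. Calls over all genes moved as well: with A485 at 2 h they numbered 6 in the main fit, 192 without the filter and 131 with DESeq2. With DMSO alone or NT alone as control the count was 0 for A485 at 6 h, for dCBP and IHK-44 at 2 h and for the time dependence of both compounds. The cause was not tested, except that a control of 1 library leaves fewer samples in the fit. With a library left out the counts ran from 0 to 1 for A485 at 2 h, 0 to 3 for A485 at 6 h, 0 to 7 for dCBP at 2 h and 0 to 6 for IHK-44 at 2 h. They ran from 0 to 3 for the time dependence of A485, 0 to 5 for that of dCBP and 2 to 5 for that of IHK-44. Between A485 and dCBP they ran from 1 to 7, between A485 and IHK-44 from 0 to 6, between A485 and JQAD from 1 to 5, between IHK-44 and JQAD from 8 to 10, and for the dose of IHK-44 from 0 to 2. A lone library left in a level is assumed to vary like the others. No member that passed changed direction in these fits: of such values, 267 still passed and 43 did not with all treated libraries kept, and 1070 passed and 182 did not with a library left out. Member ratios in single libraries of at least 1.5-fold, in CPM + 1, were recomputed under each alternative for single ratios. Of the recomputed values, counted once per ratio and alternative, 101 stayed within the counting interval and 64 left it. Depth limits ANKRD1 most, with 4 to 225 counts a library. No paired analysis was possible because each condition has 1 library, so that replicate numbers pair nothing. Dose was fitted with compound and time as a block, and a block by dose for the other comparisons was not run.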
